A study of Mus musculus with 27 samples.

Results

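The GIMAP family GTPases are 8 genes of a 35604-gene expression table, Gimap1, Gimap3, Gimap4, Gimap5, Gimap6, Gimap7, Gimap8 and Gimap9, taken by name and followed through all 9 groups of 3 libraries. They were chosen by the measured level of Gimap4, which was higher with IL-21 at 6 h, so the values with IL-21 at 6 h are given as a description, with no test. All 8 passed the filter on low values (at least 1 TPM in at least 3 libraries) and stood among 12147 tested genes. The cells were primary splenic B cells of wild-type mice, and the labels give no strain, age or sex. The naive group was untreated and taken at 0 h. The other 8 groups were cultured ex vivo with an anti-CD40 monoclonal antibody (clone HM40-3, 1 µg/mL), an antibody that acts on the receptor CD40 as T cell help does. At 6 h and at 24 h the antibody was used alone, with IL-4 at 12.5 ng/mL, with IL-21 at 50 ng/mL, or with both cytokines. The stated purpose was to find what IL-21 signalling does inside B cells.

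GIMAPs (GTPases of immunity-associated proteins) are small guanine-nucleotide-binding proteins found mainly in lymphocytes, several of them anchored in intracellular membranes such as those of lysosomes, mitochondria and the endoplasmic reticulum. They are best known for keeping resting lymphocytes alive: mice or rats without Gimap5 lose T cells, and loss of Gimap1 depletes mature T and B cells. Gimap3 is a close copy of Gimap5, Gimap6 binds the autophagy protein Gabarapl2, Gimap4 has been tied to the pace of T cell death, and Gimap8 is the long member with several GTPase domains in a row.

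The 8 genes lie side by side on chromosome 6 of the GRCm38 assembly, within chr6:48647234-48770851, a stretch of 123618 bases (GENCODE M21). Gimap4 (ENSMUSG00000054435) spans chr6:48684549-48692060 on the plus strand, and Gimap6 (ENSMUSG00000047867) chr6:48701582-48708225 on the minus strand. Gimap5 (ENSMUSG00000043505) is at chr6:48746197-48754210, plus strand, and Gimap3 (ENSMUSG00000039264) at chr6:48764464-48770851, minus strand. Gimap8 (ENSMUSG00000064262, chr6:48647234-48660875), Gimap9 (ENSMUSG00000051124, chr6:48676129-48679114), Gimap7 (ENSMUSG00000043931, chr6:48718621-48724636) and Gimap1 (ENSMUSG00000090019, chr6:48739054-48743795) are on the plus strand. Gimap3 and Gimap5 were the most alike in their coding bases, at 90.7% identity over 96.9% of the longer one, while the other pairs ranged from 57.9% to 76.1% over what could be aligned. Gimap8 has 2064 coding bases and the others 873 to 984.

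Sequence just before the start site is printed for Gimap4, Gimap5 and Gimap3, which had the largest rises with IL-21 at 24 h, and for Gimap6, the neighbour of Gimap4 that did not pass the test there with anti-CD40 alone. The letters are RefSeq's for GRCm38.p6, 5′ to 3′ along the gene, with annotated exons of other transcripts left out. Gimap4 is shown at chr6:48684328-48684548 on the plus strand, Gimap5 at chr6:48745947-48746196 on the plus strand, Gimap3 at chr6:48770852-48771101 on the minus strand and Gimap6 at chr6:48708245-48708494 on the minus strand. Capitals mark a match to TTCNNNGAA, the palindrome that STAT3, the factor IL-21 acts through, is known to bind, here held whole by Gimap6 alone.
Gimap4: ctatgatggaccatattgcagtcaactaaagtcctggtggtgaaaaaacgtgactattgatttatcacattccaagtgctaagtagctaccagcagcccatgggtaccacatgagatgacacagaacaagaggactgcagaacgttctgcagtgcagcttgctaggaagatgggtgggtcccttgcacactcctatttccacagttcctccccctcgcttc
Gimap5: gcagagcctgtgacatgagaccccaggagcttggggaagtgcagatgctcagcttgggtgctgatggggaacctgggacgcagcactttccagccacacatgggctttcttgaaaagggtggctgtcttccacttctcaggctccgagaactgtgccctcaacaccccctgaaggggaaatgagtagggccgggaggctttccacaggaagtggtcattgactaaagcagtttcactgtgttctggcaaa
Gimap3: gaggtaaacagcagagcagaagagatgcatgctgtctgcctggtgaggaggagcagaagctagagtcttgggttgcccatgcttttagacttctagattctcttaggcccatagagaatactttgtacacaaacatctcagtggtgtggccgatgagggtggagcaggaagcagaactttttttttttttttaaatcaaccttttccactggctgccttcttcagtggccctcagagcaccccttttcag
Gimap6: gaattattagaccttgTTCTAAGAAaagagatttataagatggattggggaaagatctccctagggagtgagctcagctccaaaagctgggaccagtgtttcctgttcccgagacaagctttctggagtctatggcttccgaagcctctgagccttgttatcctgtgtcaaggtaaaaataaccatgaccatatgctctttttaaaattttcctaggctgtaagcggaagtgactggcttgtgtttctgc

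The same letters were searched in 9 windows of the 8 genes, each 300 bases long (250 before the start site and 50 after it), since Gimap8 has 2 start sites in the table. TTCNNNGAA was present in 4 of the 9 windows and in 8.30% of 32841 windows of all genes. Counted from the start site to the first base of the match, the match of Gimap6 lay at -234, that of Gimap3, which runs across the start, at -5, and that of Gimap8 at -47 from the second of its start sites. The fourth, in Gimap7, lay at 41, past the start. These matched stretches are shown with 10 bases on either side, at chr6:48708460-48708488 (minus strand), chr6:48770838-48770866 (minus strand) and chr6:48647304-48647332 (plus strand).
Gimap6: ttagaccttgTTCTAAGAAaagagattta
Gimap3: agcaccccttTTCAGAGAAactcatgtac
Gimap8: aacctctttcTTCCTAGAAacatttggaa
The windows of Gimap4 and Gimap5 held none. The same half-sites with 1 more base between them, the spacing known for STAT6, the factor of IL-4, were in 0 of the 9 windows and in 6.95% of all. TGTGGT (RUNX type, on either strand) was in 3 of them, those of Gimap1, Gimap4 and Gimap7, against 16.8% of all windows. ACCGGAA (ETS type), CCACACCC (KLF type) and an NF-kB type motif were in 0 of the 9, against 3.72%, 3.56% and 1.2% of all. Both strands were searched. A match describes letters and no binding was measured.

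Values are TPM (transcripts as a share of the library, scaled for transcript length), which keeps no sequencing depth, so the depth of each library is unknown. The listed TPM summed to 766384 to 825365 per library, within-group correlations of log2(TPM + 1) were 0.927 to 0.982, and 0 pairs of libraries were identical. The 9 B cell markers summed to 472 to 4504 TPM. Markers of other cells summed to 2.41 to 76.99 TPM for T cells, 0.174 to 4.46 for NK cells, 1.22 to 36.6 for macrophages and monocytes and 1.53 to 50.4 for endothelial cells. Of the 15 T cell markers, 8 stayed under 1 TPM in every library and Bcl11b was listed at 0 in all, and the highest T cell sums were made by Thy1 (a mean of 65.7 TPM with both cytokines at 24 h). Replicate 1 of the naive group stood apart in its share of mitochondrially encoded RNA, 5.50% against 12.7% and 13.5%. Replicate 1 of anti-CD40 with IL-4 at 24 h had 7.89% against 11.6% and 10.97%, so for some members values that rest on these libraries are also given without them. Replicate 3 was low as well with IL-4 at 6 h (6.91% against 10.2% and 10.6%) and with IL-21 at 6 h (7.27% against 10.9% and 10.2%). No label says that replicates came from separate mice, so the p-values measure only the spread between these libraries, which may be technical. In such bulk RNA, fewer cells of a type and less RNA per cell cannot be told apart.

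GIMAP transcripts were abundant in naive B cells. In the cultured groups other than 6 h with anti-CD40 alone, the make-up of the family shifted on average from Gimap6 to Gimap4. The 8 members summed to 1657 ± 295 TPM (mean ± SD, n = 3) in naive cells. The sum was 758 ± 29.9 TPM after 6 h with anti-CD40 alone, the lowest of the 9 groups, and 2232 ± 102 TPM after 24 h with IL-21, the highest. In between, the sums at 6 h were 992 ± 10.3 with IL-4, 1398 ± 66.0 with IL-21 and 1382 ± 6.09 with both. At 24 h they were 1189.6 ± 128 with anti-CD40 alone, 969 ± 83.9 with IL-4 and 1892 ± 45.05 with both. Naive replicate 1 reached 1997 TPM against 1482 and 1491 TPM in the other naive libraries.

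**Figure D1:**
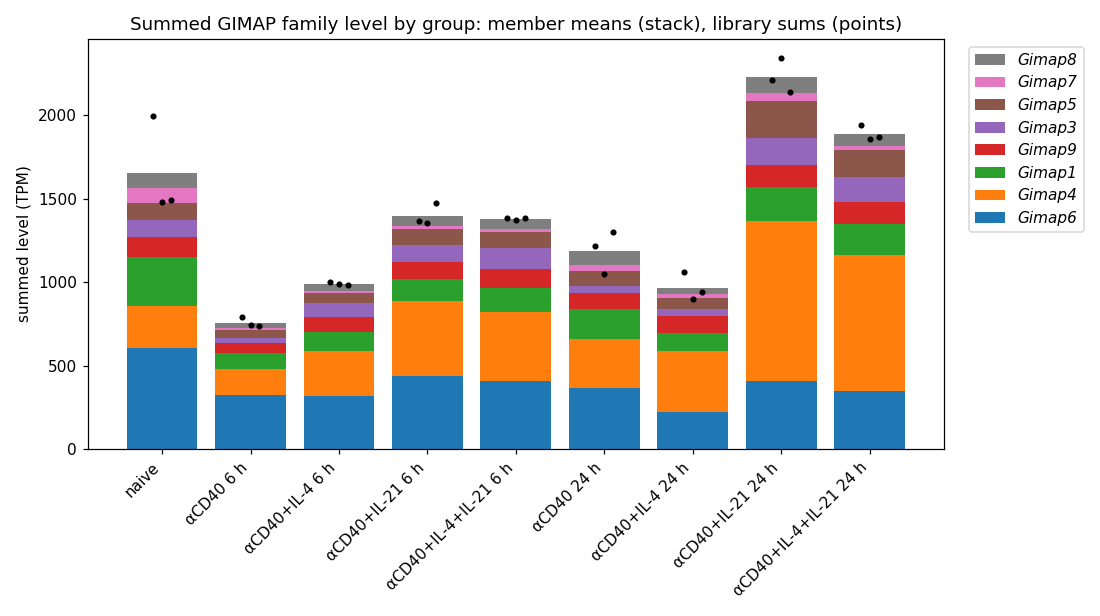
Summed level of the 8 GIMAP genes in TPM (vertical axis, from 0) for the 9 groups; stacked colours are the members' group means and points are the sums of single libraries. The 3 anti-CD40 alone libraries at 6 h sit between 739 and 792 TPM, and the 3 libraries with IL-21 at 24 h between 2139.6 and 2342 TPM, where Gimap4 makes the thickest layer.

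In naive cells Gimap6 had the highest level, 607 ± 35.8 TPM, and ranked 157th of the 12147 tested genes by mean level. Gimap1 followed at 293 ± 110.2 TPM and Gimap4 at 253 ± 60.7 TPM, with the ranges of these 2 overlapping. The other 5 lay close together, from 90.1 TPM for Gimap8 and 90.9 TPM for Gimap7 to 117 TPM for Gimap9. With IL-21 at 24 h Gimap4 ranked 131st, and Gimap7 was the lowest member in every cultured group.

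Over the 9 groups Gimap4 was lowest after 6 h with anti-CD40 alone (155 ± 8.03 TPM), below the naive libraries without overlap. Naive cells, IL-4 at 6 h (274 ± 11.1 TPM) and anti-CD40 alone at 24 h (298 ± 40.3 TPM) overlapped in order. The libraries with IL-4 at 24 h (366 ± 44.7 TPM) overlapped those with both cytokines at 6 h (414 ± 15.4 TPM), and these overlapped IL-21 at 6 h (451 ± 37.4 TPM). Both cytokines at 24 h (816 ± 25.5 TPM) and IL-21 at 24 h (961 ± 80.3 TPM) stood above all other groups and did not overlap each other.

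The other members had other orders, which describe the 9 groups and include those used in the choice. Gimap6 and Gimap7 had their highest means in naive cells, with 607 ± 35.8 and 90.9 ± 5.85 TPM. Gimap6 was lowest with IL-4 at 24 h (224 ± 31.4 TPM) and Gimap7 with IL-4 at 6 h (10.8 ± 0.222 TPM). Across the cultured groups Gimap7 did not pass 51.7 TPM on average. Gimap1, whose loss is known to deplete mature lymphocytes, was highest in naive cells too (293 ± 110.2 TPM) and lowest after 6 h with anti-CD40 alone (99.3 ± 13.4 TPM), a level that the IL-4 group at 24 h overlapped (106 ± 58.6 TPM).

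Gimap3, Gimap5 and Gimap9 had their highest means with IL-21 at 24 h. These were 162 ± 36.1 TPM for Gimap3, 217 ± 14.5 TPM for Gimap5 and 136 ± 24.5 TPM for Gimap9, where the libraries of Gimap3 and Gimap9 overlapped those with both cytokines at 24 h (148 ± 4.65 and 133 ± 12.4 TPM). Gimap5 and Gimap9 were lowest after 6 h with anti-CD40 alone, with 44.6 ± 5.72 and 59.7 ± 1.56 TPM. The mean of Gimap3 was lowest there too (31.4 ± 2.44 TPM), a level that the IL-4 group at 24 h overlapped (41.9 ± 23.6 TPM). Gimap8 was highest with IL-21 at 24 h (96.8 ± 15.1 TPM), overlapping the naive group (90.1 ± 19.4 TPM), and lowest after 6 h with anti-CD40 alone (31.3 ± 1.30 TPM).

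**Figure D2:**
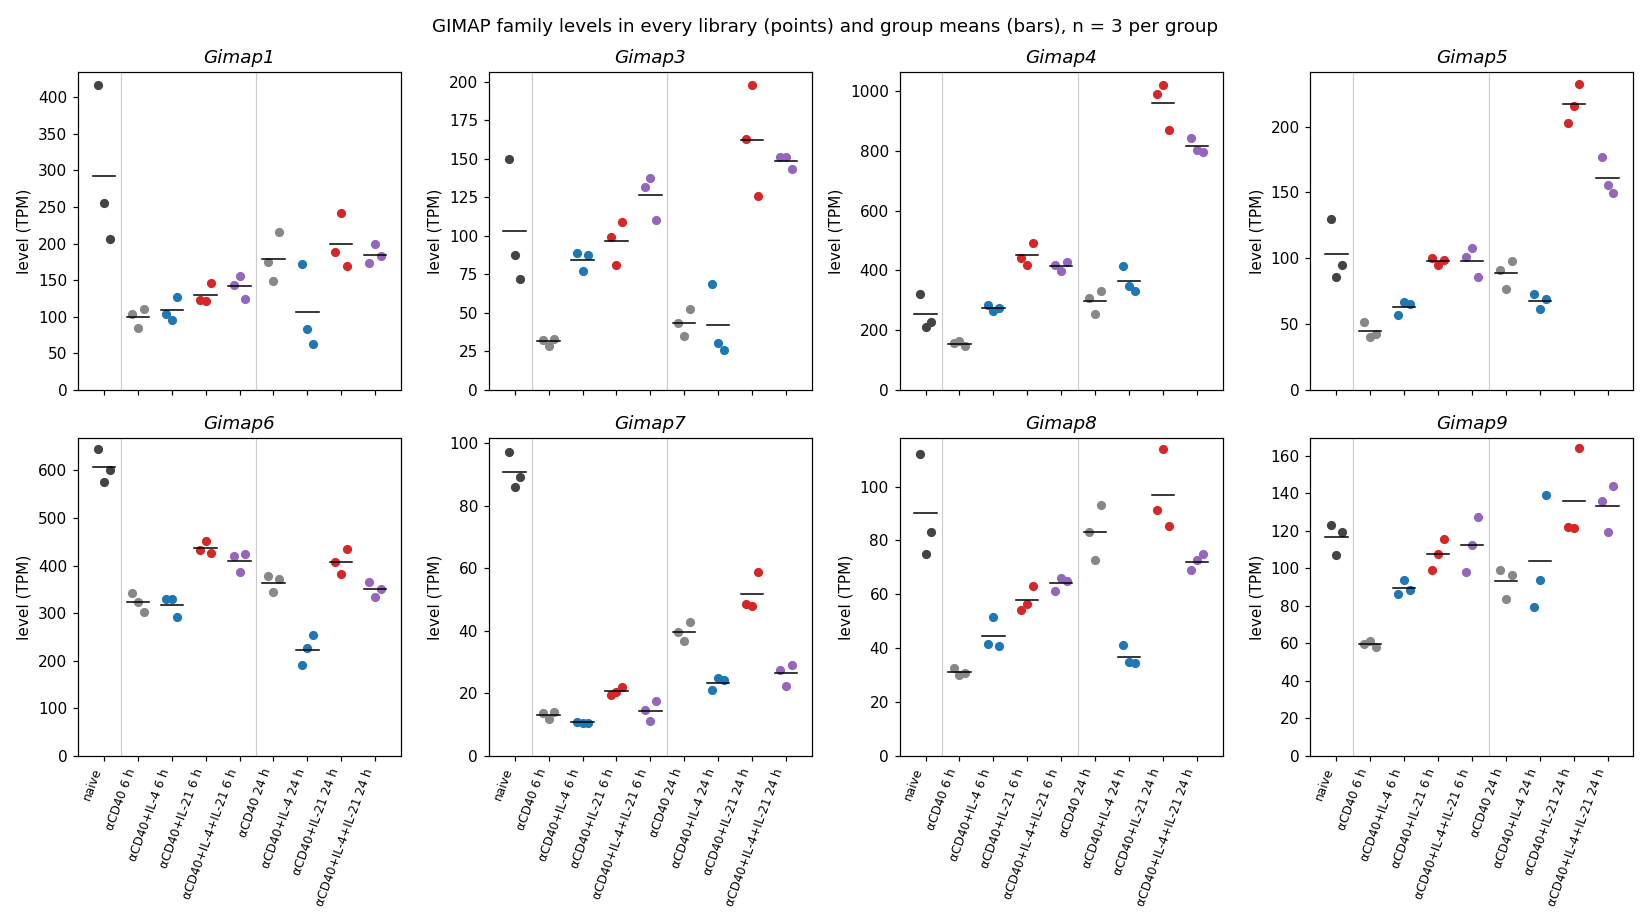
Level in TPM (vertical axes, each from 0 and with its own scale) of each GIMAP gene in the 27 libraries; points are libraries and bars are means of 3. Gimap7 drops from 85.9 or more in naive cells to 13.9 or less after 6 h with anti-CD40 alone, and Gimap4 reaches 869.9 to 1022 with IL-21 at 24 h.

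All 8 members fell between naive cells and 6 h with anti-CD40 alone. Differences are log2 differences of log2(TPM + 1) ± standard error with 3 libraries a group, tested with limma over all 12147 genes, and a gene is called at a Benjamini-Hochberg adjusted p below 0.05. Of all tested genes 13.3% were called lower and 16.6% higher in this comparison. The median difference was -1.33 over the members and 0.06 over all genes. Naive cells were not cultured, so culture and anti-CD40 cannot be told apart here, and the anti-CD40 libraries at 6 h are also the controls of the contrast from which the family was picked.

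Gimap7, whose human counterpart is known to pair with other GIMAPs and speed their GTP hydrolysis, moved most. It stood at 97.3, 85.9 and 89.3 TPM in the naive libraries and at 13.6, 11.7 and 13.9 TPM after 6 h. The groups lay far apart, with a difference of -2.71 ± 0.15 (adjusted p = 8.82e-12), 6.54-fold lower on the log2(TPM + 1) scale. The survival gene Gimap5 went from 130.0, 85.6 and 94.97 TPM to 51.1, 40.4 and 42.3 TPM, again with no overlap. Its difference was -1.18 ± 0.15 (adjusted p = 1.44e-06).

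Gimap3, the near copy of Gimap5, was at 149.9, 87.4 and 72.1 TPM in naive cells and at 32.2, 28.6 and 33.3 TPM at 6 h. It fell by 1.62 ± 0.28 on the log2 scale (adjusted p = 7.82e-05), or by 1.31 without naive replicate 1 (adjusted p = 0.000924), which was the highest library. Gimap1 likewise had its highest value in that library, 417, 256 and 206 TPM, against 103, 84.4 and 110.2 TPM at 6 h. All 3 naive libraries were above the cultured ones, with a difference of -1.50 ± 0.27 (adjusted p = 0.000173) and of -1.21 (adjusted p = 0.00203) without naive replicate 1.

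Gimap8 was at 112, 75.0 and 83.1 TPM and then at 32.7, 30.2 and 30.9 TPM, a difference of -1.48 ± 0.15 (adjusted p = 6.59e-08). The smaller falls were those of Gimap9 (-0.95 ± 0.16, adjusted p = 9.10e-05) and Gimap6 (-0.91 ± 0.11, adjusted p = 6.08e-07). Gimap4 fell least. It was at 322, 210.5 and 226 TPM in naive cells and at 157, 162 and 146 TPM at 6 h, a difference of -0.68 ± 0.14 (adjusted p = 0.000567). In the same libraries the summed markers also differed: B cells 3148 to 4504 TPM in naive and 1443 to 2605 at 6 h, T cells 4.73 to 7.66 and 2.41 to 4.45, macrophages and monocytes 25.1 to 36.6 and 5.98 to 7.83. Their part in the falls was not tested. Of the genes called, 55.5% were higher, and 45.1% after median-of-ratios rescaling, under which the 8 members kept their calls. Without naive replicate 1 the differences were -2.66 for Gimap7, -1.31 for Gimap8 and -1.01 for Gimap5. They were -0.91 for Gimap9, -0.86 for Gimap6 and -0.49 for Gimap4, all still called.

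By 24 h with anti-CD40 alone most members had risen again from the 6 h level. Those 6 h libraries were the controls of the contrast that chose the family, so this comparison is not independent of the choice. Against 6 h, 6 of 8 were called higher, where 16.1% of all genes were, with 8.17% called lower, and limma called 0 members lower (0 also at an unadjusted p below 0.05). The median difference was 0.88 over the members and 0.15 over all genes (0.03 after rescaling). Of the genes called, 66.3% were higher, and 52.4% after rescaling.

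Gimap7 reached 39.5, 36.7 and 42.8 TPM at 24 h, all above its 6 h libraries, a rise of 1.53 ± 0.15 (adjusted p = 2.31e-07). Gimap8 reached 83.3, 72.6 and 93.2 TPM, a rise of 1.37 ± 0.15 (adjusted p = 7.15e-07). Both were still among the genes with no overlap between the times. Gimap5 stood at 90.7, 76.7 and 97.9 TPM, with a rise of 0.97 ± 0.15 (adjusted p = 5.26e-05). Gimap4 stood at 309, 253 and 331 TPM, with a rise of 0.93 ± 0.14 (adjusted p = 4.12e-05). Gimap1 (0.84 ± 0.27, adjusted p = 0.0282) and Gimap9 (0.63 ± 0.16, adjusted p = 0.00742) were called with less margin. Leaving out either of replicates 1 and 2 of anti-CD40 at 6 h, or replicate 1 or 3 at 24 h, ended the call of Gimap1 (adjusted p = 0.0518 to 0.127), as did testing without the filter on low values (adjusted p = 0.0634), and rescaling ended that of Gimap9 (0.46, adjusted p = 0.211). Gimap3 (0.44 ± 0.28, adjusted p = 0.266) and Gimap6 (0.17 ± 0.11, adjusted p = 0.258) did not pass the test, although their libraries did not overlap either.

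Measured against naive cells, 3 of 8 members were lower at 24 h, where 7.85% of all genes were (18.9% higher). These were Gimap3 (-1.18 ± 0.28, adjusted p = 0.00293), Gimap7 (-1.18 ± 0.15, adjusted p = 4.07e-06) and Gimap6 (-0.73 ± 0.11, adjusted p = 2.11e-05). Gimap6, the autophagy-linked member, was at 645, 575 and 600.3 TPM in naive cells, at 343, 323 and 304 TPM at 6 h and at 377, 344 and 372 TPM at 24 h, so that every cultured library lay below every naive one. The other 5 were not called: Gimap1 at -0.66 ± 0.27, Gimap4 at 0.25 ± 0.14, Gimap5 at -0.21 ± 0.15, Gimap8 at -0.10 ± 0.15 and Gimap9 at -0.32 ± 0.16. Without naive replicate 1 Gimap4 was called at 0.44 (adjusted p = 0.012), and without naive replicate 3 Gimap1 at -0.88 (adjusted p = 0.0406). The median difference was -0.49 over the members against 0.25 over all genes. Rescaling moved the latter to 0.02 and the members called to 6, adding Gimap1 -0.98 (adjusted p = 2.67e-05), Gimap5 -0.53 (adjusted p = 0.0144) and Gimap8 -0.42 (adjusted p = 0.0098), while the share of called genes that were higher went from 70.7% to 44.9%. With rescaling, 1987 of 12052 tested genes were called lower and 1621 higher, in place of 953 and 2299 of 12147. Endothelial markers summed to 31.9 to 49.5 TPM at 24 h and 5.23 to 10.9 at 6 h, and B cell markers to 3475 to 3861 and 1443 to 2605 TPM. Of the endothelial sum, Pecam1, a gene that some leukocytes also use, made a mean of 40.2 and 6.46 TPM, and their part was not tested.

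With IL-21 at 6 h all 8 members were higher than with anti-CD40 alone, and this is the contrast that chose the family. Gimap4 was at 157, 162 and 146 TPM without IL-21 and at 440.2, 419.8 and 492 TPM with it, a ratio of means of 2.91. Gimap3 went from 32.2, 28.6 and 33.3 TPM to 99.3, 81.1 and 109 TPM, the largest ratio at 3.07. Gimap5 went from 51.1, 40.4 and 42.3 TPM to 100.1, 94.6 and 98.8 TPM, a ratio of 2.19. These 3 genes stood clear of their controls, and so did the rest. The ratios of the others were 1.85 for Gimap8, 1.80 for Gimap9, 1.58 for Gimap7, 1.35 for Gimap6 and 1.31 for Gimap1, and the ranges overlapped for 0 of 8, while 21.6% of all genes had ranges apart in this direction. Of all genes 7.43% were called higher and 4.68% lower here, from which nothing is read for the members.

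When IL-4 was present as well at 6 h, the log2 differences with IL-21 lay between 0.32 for Gimap9 and 0.63 for Gimap5. Gimap4 was at 286, 263 and 273 TPM with IL-4 and at 417, 398 and 428 TPM with both, a difference of 0.59 beside 1.53 without IL-4. Gimap3 was at 88.5, 77.3 and 87.5 TPM and at 131, 137 and 110.3 TPM, a difference of 0.57 beside 1.58. The groups overlapped for Gimap1 and for no other member, while 14.7% of all genes had every library with IL-21 above every one without it. By the limma test 1.25% of all genes were called higher and 1.28% lower. With anti-CD40 and no IL-4 at 6 h, the B cell markers summed to 472 to 749.6 TPM with IL-21 and 1443 to 2605 without it. Their sum was thus lower where the GIMAP genes were higher. Cd22 and Ebf1 of that list went the other way, with means of 14.4 and 7.14 TPM with IL-21 and 8.35 and 3.07 without it. The T cell markers summed to 5.93 to 8.26 TPM with IL-21 and 2.41 to 4.45 without it, higher where the GIMAP genes were higher. Trac, a T cell receptor chain, was at 3.19, 5.23 and 4.15 TPM with IL-21 and 1.49, 1.03 and 1.63 without it. Cd3d went the other way, with means of 0.183 TPM with IL-21 and 0.505 without it and overlapping libraries. Macrophage and monocyte markers summed to 8.22 to 9.30 and 5.98 to 7.83 TPM, and the part of these cells was not tested.

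At 24 h, in libraries that played no part in the choice, IL-21 raised Gimap3, Gimap4, Gimap5 and Gimap9. The anti-CD40 libraries at 24 h are also those compared with naive cells and with 6 h. That was 4 of 8 members called higher, where 17.8% of all genes were called higher and 6.33% lower. Limma called 0 members lower (0 also at an unadjusted p below 0.05). Gimap4 stood at 309, 253 and 331 TPM with anti-CD40 alone and at 991, 1022 and 869.9 TPM with IL-21. The lowest library with IL-21 was more than 2-fold above the highest without it. The rise was 1.69 ± 0.14 (adjusted p = 6.41e-09), 3.23-fold on the log2(TPM + 1) scale.

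Gimap3 was at 43.6, 34.6 and 52.2 TPM without IL-21 and at 163, 198 and 126 TPM with it. The libraries with IL-21 scattered widely yet stayed above the others, and the rise was 1.87 ± 0.28 (adjusted p = 2.81e-05). Gimap5 was at 90.7, 76.7 and 97.9 TPM and at 203, 216 and 232 TPM, a rise of 1.29 ± 0.15 (adjusted p = 9.84e-07) with no overlap. Gimap9 was at 99.1, 83.7 and 96.6 TPM and at 122, 121 and 164 TPM. Its rise of 0.53 ± 0.16 (adjusted p = 0.0212) was lost without replicate 3 of the IL-21 group (0.39, adjusted p = 0.11), without replicate 2 of anti-CD40 alone (adjusted p = 0.0969), after rescaling (0.26, adjusted p = 0.548) and in a fit of the compared groups alone (adjusted p = 0.0649).

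The remaining members had smaller differences that did not pass the test. They were 0.37 ± 0.15 for Gimap7 (adjusted p = 0.0757), 0.21 ± 0.15 for Gimap8 (adjusted p = 0.316), 0.16 ± 0.11 for Gimap6 (adjusted p = 0.284) and 0.16 ± 0.27 for Gimap1 (adjusted p = 0.723). The 95% intervals were -0.06 to 0.38 for Gimap6 and -0.41 to 0.72 for Gimap1, and both genes, with Gimap8, had values below 0 after rescaling. Gimap6 was at 408, 382 and 435 TPM with IL-21 at 24 h, beside 377, 344 and 372 TPM without it. The median difference of the members was 0.45 and that of all genes 0.23 (0.00 after rescaling), and the share of called genes that were higher went from 73.8% to 54.8%.

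T cells are known for high GIMAP levels, and their markers moved with this comparison. The 15 markers summed to 3.14 to 3.90 TPM with anti-CD40 alone at 24 h and to 10.8 to 13.7 TPM with IL-21, against a GIMAP sum of 2232 ± 102 TPM. Lat, a T cell adaptor, made 5.97, 7.11 and 7.27 TPM of it. Cd3e, a defining T cell gene, was at 0.631, 0.291 and 1.51 TPM with IL-21 and at 0.0662, 0.105 and 0.057 TPM without it. Bcl11b was listed at 0 in all of these libraries. The B cell markers summed to 3475 to 3861 TPM without IL-21 and 1529.7 to 2099 with it. NK cell markers summed to 0.804 to 1.41 TPM without IL-21 and 1.63 to 2.68 with it. Macrophage and monocyte markers summed to 3.15 to 4.49 and 4.46 to 8.37 TPM, with overlap. Endothelial markers were lower with IL-21, at 31.9 to 49.5 and 4.48 to 8.77 TPM. The part of T cell RNA and of these other cells in the rises was not tested.

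**Figure D3:**
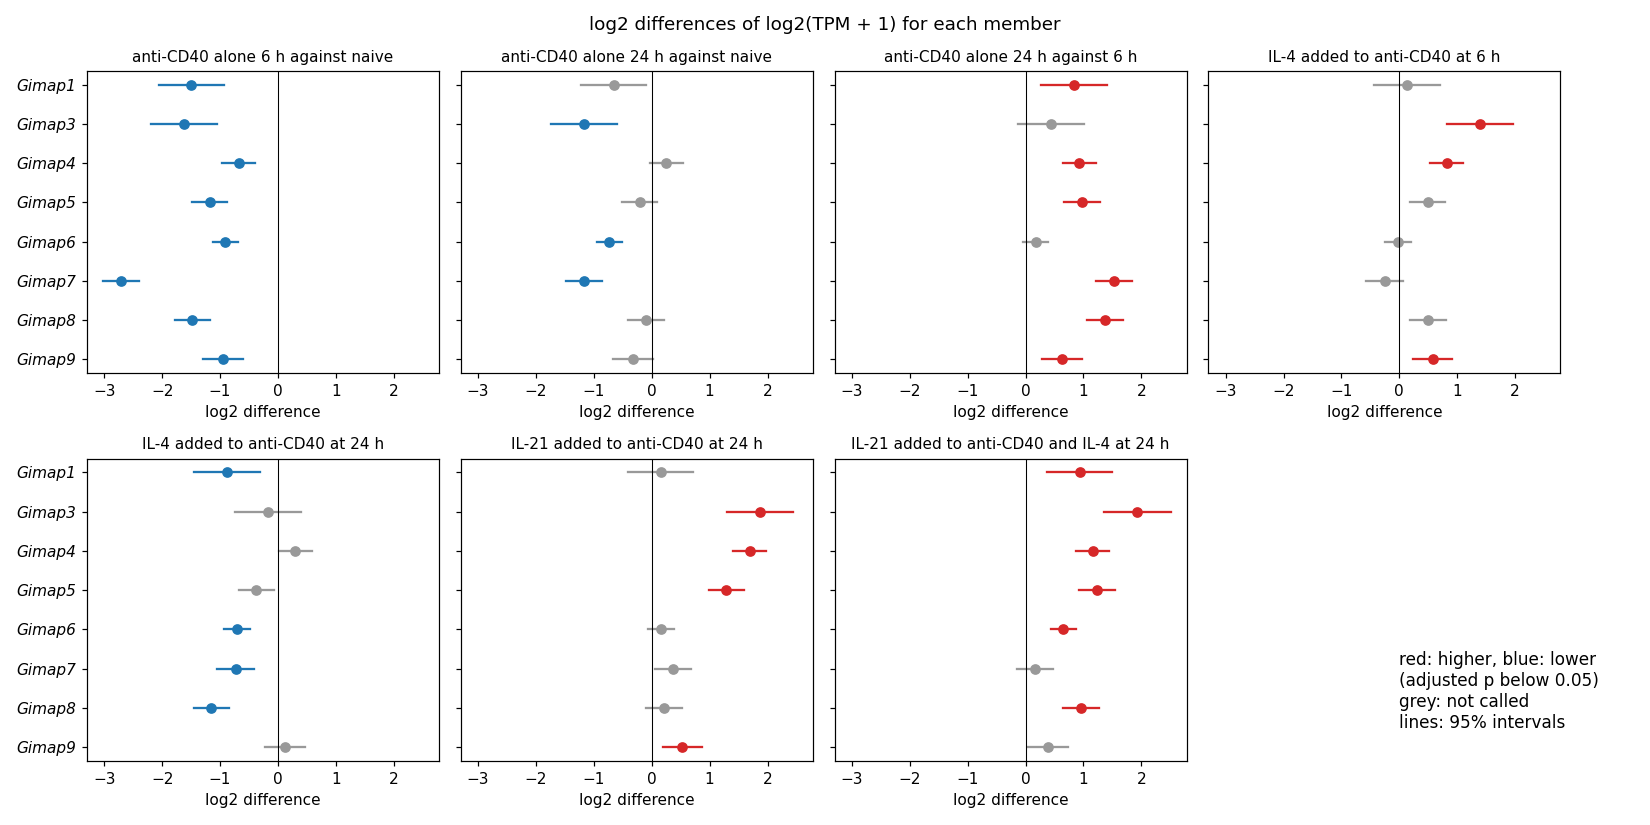
Log2 difference of log2(TPM + 1) (horizontal axes) for each GIMAP gene in the 7 tested comparisons; points are estimates from limma with 3 libraries a group, lines are 95% intervals, red marks genes called higher, blue lower and grey not called. With IL-21 at 24 h the points of Gimap3, Gimap4 and Gimap5 lie at 1.87, 1.69 and 1.29, and after 6 h with anti-CD40 alone all 8 points are below 0.

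In the presence of IL-4, IL-21 at 24 h raised 6 of 8 members, where 21.8% of all genes were called higher and 2.39% lower. Gimap3 stood at 69.0, 30.6 and 26.02 TPM with IL-4 and at 151, 151 and 143 TPM with both cytokines. All libraries with both were above the highest with IL-4, and the rise was 1.93 ± 0.28 (adjusted p = 2.77e-05). Gimap5 was at 72.9, 61.2 and 69.2 TPM and at 177, 156 and 149 TPM, a rise of 1.23 ± 0.15 (adjusted p = 2.57e-06). Gimap4 was at 416, 348 and 332 TPM and at 845, 806 and 797 TPM, a rise of 1.16 ± 0.14 (adjusted p = 2.36e-06).

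Gimap8, which had not passed the test without IL-4, was at 41.1, 35.0 and 34.4 TPM with IL-4 and at 69.2, 72.6 and 74.8 TPM with both, a rise of 0.96 ± 0.15 (adjusted p = 8.69e-05) with the groups well apart. Gimap6 was at 191, 226 and 254 TPM and at 365, 334 and 352 TPM. Its rise of 0.65 ± 0.11 (adjusted p = 0.000148) came to 0.07 (adjusted p = 0.841) after rescaling and was not called with the compared groups alone (adjusted p = 0.0995). Gimap1 was at 172, 83.0 and 61.9 TPM and at 173, 199 and 182 TPM, so that 1 library with IL-4, replicate 1, nearly reached the group with both.

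The rise of Gimap1 was 0.93 ± 0.27 (adjusted p = 0.0186), or 1.35 (adjusted p = 8.84e-05) without that library. It was not called without replicate 2 or 3 of the IL-4 group or replicate 2 of the group with both (adjusted p = 0.0642 to 0.176), nor after rescaling (0.36, adjusted p = 0.0844) or with the compared groups alone (adjusted p = 0.153). Gimap9 (0.39 ± 0.16, adjusted p = 0.0832) and Gimap7 (0.16 ± 0.15, adjusted p = 0.456) were not called, although Gimap9 passed without replicate 3 of the IL-4 group, its highest (0.62, adjusted p = 0.00907). Without replicate 1 of the IL-4 group the rises were 2.35 for Gimap3, 1.29 for Gimap5 and 1.26 for Gimap4. They were 1.03 for Gimap8 and 0.54 for Gimap6, all still called. With all libraries the median difference was 0.95 over the members and 0.38 over all genes (-0.01 after rescaling). Of the genes called 90.1% were higher, and 46.3% after rescaling. The B cell markers summed to 1849 to 2463 TPM with IL-4 and 1887 to 1959 with both. The T cell markers summed to 15.9 to 49.8 TPM with IL-4 and 65.7 to 76.99 with both, of which Thy1 made 46.4, 13.4 and 14.6 and 69.7, 67.9 and 59.4 TPM. Cd3e was also higher, at 0.0107, 0.043 and 0.0336 TPM with IL-4 and at 0.327, 0.202 and 0.0972 TPM with both. Cd3d went the other way, with means of 0.0512 TPM with IL-4 and 0.0116 with both and overlapping libraries. The part of T cell RNA in these rises was not tested.

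IL-4 added to anti-CD40 at 6 h raised Gimap3, Gimap4 and Gimap9, 3 of 8 members, where 1.65% of all genes were called higher and 2.4% lower. The controls are again the anti-CD40 libraries at 6 h that served in choosing the family. Gimap3 was at 32.2, 28.6 and 33.3 TPM without IL-4 and at 88.5, 77.3 and 87.5 TPM with it. Those groups were more than 2-fold apart at their nearest libraries, and the rise was 1.40 ± 0.28 (adjusted p = 0.00228). Gimap4 was at 157, 162 and 146 TPM and at 286, 263 and 273 TPM, a rise of 0.82 ± 0.14 (adjusted p = 0.000468). Gimap9 was at 59.7, 61.3 and 58.2 TPM and at 86.2, 94.1 and 88.7 TPM.

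The groups of Gimap9 did not overlap, yet its rise of 0.58 ± 0.16 (adjusted p = 0.0483) was not called when any 1 of the 6 libraries was left out (adjusted p = 0.0940 to 0.172), without the filter or the variance trend (adjusted p = 0.0680 and 0.0761) or after rescaling (0.55, adjusted p = 0.316). Gimap5 (0.49 ± 0.15, adjusted p = 0.0701) and Gimap8 (0.50 ± 0.15, adjusted p = 0.0673) were not called. These values come from the main fit, which did not pair libraries. In a fit that blocks on replicate number, which pairs the libraries of this comparison, Gimap5 (adjusted p = 0.0486) and Gimap9 (adjusted p = 0.0176) were called. Gimap8 was called after rescaling (0.47, adjusted p = 0.0172). Gimap1 (0.13 ± 0.27), Gimap6 (-0.03 ± 0.11) and Gimap7 (-0.26 ± 0.15) were not called. The median difference was 0.49 over the members and 0.02 over all genes. The B cell markers summed to 1312 to 2183 TPM with IL-4 and 1443 to 2605 without it, and the T cell markers to 3.01 to 5.77 and 2.41 to 4.45 TPM.

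At 24 h IL-4 lowered 4 of 8 members, Gimap1, Gimap6, Gimap7 and Gimap8, where 23.1% of all genes were called lower and 8.28% higher. Limma called 0 members higher, and 1 at an unadjusted p below 0.05. Gimap8 was at 83.3, 72.6 and 93.2 TPM with anti-CD40 alone and at 41.1, 35.0 and 34.4 TPM with IL-4. Every library with IL-4 lay below every one without it, with a fall of 1.15 ± 0.15 on the log2 scale (adjusted p = 5.10e-06). Gimap6 was at 377, 344 and 372 TPM and at 191, 226 and 254 TPM, a difference of -0.71 ± 0.11 (adjusted p = 3.15e-05). Gimap7 was at 39.5, 36.7 and 42.8 TPM and at 21.2, 25.0 and 24.2 TPM, a difference of -0.73 ± 0.15 (adjusted p = 0.000851).

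The falls of Gimap6 and Gimap7 were not called after rescaling, at -0.23 (adjusted p = 0.44) and -0.27 (adjusted p = 0.367). All genes had a median of -0.31, which rescaling moved to -0.00256, and the share of called genes that were higher went from 26.4% to 54.0%. Gimap1 fell by 0.88 ± 0.27 (adjusted p = 0.0179) with overlapping libraries, or by 1.29 without replicate 1 of the IL-4 group. The call was lost without replicate 3 of anti-CD40 alone or without replicate 2 or 3 of the IL-4 group (adjusted p = 0.0812 to 0.154). A fit of the compared groups alone called neither Gimap1 (adjusted p = 0.133), Gimap6 (adjusted p = 0.0601) nor Gimap7 (adjusted p = 0.0861). Gimap4 was not called at 0.30 ± 0.14 (adjusted p = 0.108), while rescaling gave 0.77 (adjusted p = 4.27e-05). Gimap3 (-0.17 ± 0.28), Gimap5 (-0.37 ± 0.15) and Gimap9 (0.12 ± 0.16) were not called, while without replicate 1 of the IL-4 group Gimap3 (-0.59, adjusted p = 0.0434) and Gimap5 (-0.43, adjusted p = 0.0303) were called lower, as Gimap5 was without replicate 2 of anti-CD40 alone (-0.47, adjusted p = 0.0309). The B cell markers summed to 3475 to 3861 TPM without IL-4 and 1849 to 2463 with it, the T cell markers to 3.14 to 3.90 and 15.9 to 49.8, and the endothelial ones to 31.9 to 49.5 and 2.58 to 8.49, where Pecam1 had means of 40.2 and 3.04 TPM. Their part was not tested.

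The IL-4 difference of 4 members was lower at 24 h than at 6 h by a test of the change itself, which was added after the levels had been seen. In that test 5.07% of all genes were called lower and 2.12% higher. It draws on the anti-CD40 libraries at 6 h, which served in choosing the family, so it is not independent of that choice. The changes were -1.64 ± 0.21 for Gimap8 (adjusted p = 9.13e-05), -1.57 ± 0.39 for Gimap3 (adjusted p = 0.0177), -0.86 ± 0.21 for Gimap5 (adjusted p = 0.015) and -0.68 ± 0.15 for Gimap6 (adjusted p = 0.00867). The median change was -0.77 over the members and -0.32 over all genes. The call of Gimap3 was lost without replicate 3 of anti-CD40 alone or replicate 2 or 3 of the IL-4 group at 24 h (adjusted p = 0.0626 to 0.0651), and that of Gimap5 without the first or second of these (adjusted p = 0.0533 and 0.0534). Without replicate 1 of the IL-4 group at 24 h, Gimap1 was called at -1.42 (adjusted p = 0.00209) and Gimap4 at -0.62 (adjusted p = 0.0178). Rescaling ended the calls of Gimap5 (-0.36, adjusted p = 0.299) and Gimap6 (-0.18, adjusted p = 0.75), a fit of the compared groups alone ended those of Gimap3 (adjusted p = 0.0749), Gimap5 (adjusted p = 0.0841) and Gimap6 (adjusted p = 0.107), and the share of called genes that were higher went from 29.4% to 56.5%.

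Whether IL-21 acted differently with and without IL-4 at 24 h was tested as an interaction, for which 3.33% of all genes were called positive and 2.48% negative. Only Gimap8 among the members passed, at 0.74 ± 0.21 (adjusted p = 0.0372), and 9 of 12 single left-out libraries ended that call. It was also lost after rescaling (0.45, adjusted p = 0.0917), with no variance trend (adjusted p = 0.0565) and in a fit of the compared groups alone (adjusted p = 0.152). It held without replicate 2 of anti-CD40 alone, replicate 1 of the IL-4 group or replicate 2 of the IL-21 group. Gimap6 (0.49 ± 0.15, adjusted p = 0.0585), Gimap1 (0.78 ± 0.39, adjusted p = 0.261) and Gimap4 (-0.53 ± 0.20, adjusted p = 0.124) did not pass, with 95% intervals of 0.18 to 0.80, -0.02 to 1.58 and -0.94 to -0.12. The negative value of Gimap4 was called after rescaling (-0.83, adjusted p = 0.00283). Without replicate 1 of the IL-4 group at 24 h the interaction of Gimap1 was 1.20 (adjusted p = 0.0106) and that of Gimap6 0.38 (adjusted p = 0.0429). Gimap6 was also called without replicate 3 of that group, at 0.58 (adjusted p = 0.0209), and with the replicate block (adjusted p = 0.0474). Of the genes called 57.3% had a positive interaction, and 43.8% after rescaling.

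Ratios between members within a library do not depend on the scaling of the library. The ratio of Gimap4 to Gimap6 was 0.414 in naive cells (0.366 to 0.4996 over libraries) and 0.48 after 6 h with anti-CD40 alone. It was 0.867 with IL-4, 1.03 with IL-21 and 1.01 with both at 6 h, where the groups with IL-21 and with anti-CD40 alone served in choosing the family. At 24 h it was 0.815 with anti-CD40 alone, 1.68 with IL-4, 2.37 with IL-21 and 2.33 with both. Gimap4 thus went from 15.2% of the family's summed TPM in naive cells to 43.0% with IL-21 at 24 h, and Gimap6 from 37.1% to 18.4%. After 6 h with anti-CD40 alone Gimap6 made 42.6%, its highest mean share of the 9 groups, and Gimap4 20.5%. Gimap3 and Gimap5, the similar pair, also moved apart: their ratio was 1.35 (1.16 to 1.56) with IL-4 at 6 h and 0.489 (0.452 to 0.533) with anti-CD40 alone at 24 h.

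**Figure D4:**
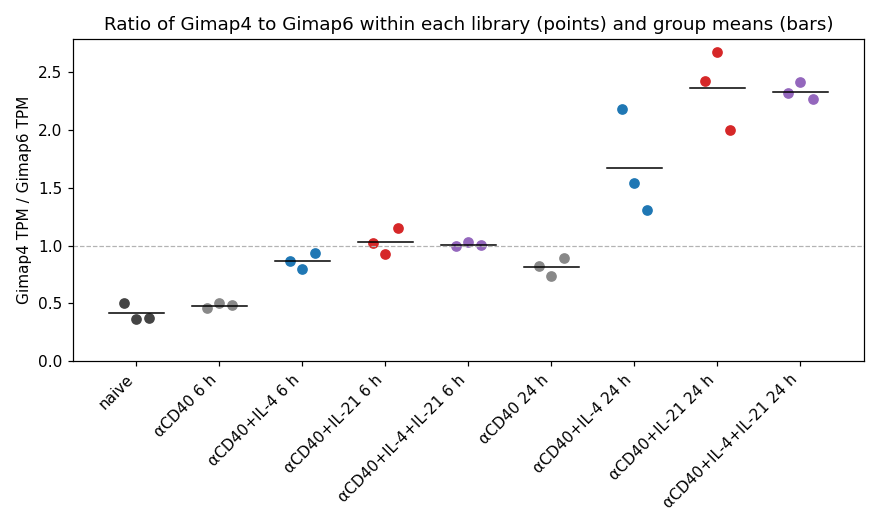
Ratio of Gimap4 TPM to Gimap6 TPM in each of the 27 libraries (points) and its mean in each group (bars), vertical axis from 0, dashed line at 1. All 6 naive and anti-CD40 alone 6 h libraries are at 0.502 or lower, and all 6 libraries with IL-21 at 24 h are at 2.00 or higher.

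Some members share sequence or place with other transcripts, which bears on how far their values can be told apart. Of the 31-base words of Gimap3 transcripts 13.2% also occur in Gimap5, and 8.02% of those of Gimap5 occur in Gimap3, so reads from these words could be assigned to either. Gimap4 and Gimap9 share 0% with any other annotated transcript. Of the words of Gimap1, 33.9% also occur in Gimap1os, an antisense transcript that is not analysed here, and the sources used here do not say whether counting used the strand. Gm28053, a protein-coding model at chr6:48718607-48752644 on the plus strand, reads through Gimap7, Gimap1 and Gimap5. Its level ranged from 21.7 to 104 TPM, with means of 35.3 in naive cells, 40.7 after 6 h with anti-CD40 alone and 86.8 with IL-21 at 24 h.

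Adding the Gm28053 level to each of the 3 genes it spans, an alternative chosen after the values were seen, changed Gimap7 most. The fall of Gimap7 at 6 h with anti-CD40 alone came to -1.22 (adjusted p = 2.38e-06) in place of -2.71, and its difference from naive at 24 h to -0.07 (adjusted p = 0.792), no longer called. Gimap5 then stood at 0.31 (adjusted p = 0.107) against naive at 24 h, with the sign turned. Its rise with IL-21 at 24 h came to 0.85 (adjusted p = 9.13e-05) in place of 1.29. Its rise with IL-4 and IL-21 came to 0.91 (adjusted p = 6.34e-05), and Gimap1 was at 0.73 (adjusted p = 0.0245) there.

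Across the 9 group means of log2(TPM + 1), the members did not all run alike. Gimap1 and Gimap8 had the highest Pearson correlation (0.918), followed by Gimap4 with Gimap5 (0.908) and Gimap5 with Gimap9 (0.902), and Gimap4 with Gimap6 had the lowest (0.0589). These describe 9 points from shared libraries, among them the contrast that chose the family. Among 6806 genes with a mean of at least 5 TPM, the protein-coding genes most like Gimap4 over the 9 means were Hnrnpm, a splicing factor (r = 0.973), Slc17a9, a nucleotide transporter (0.970), Lamtor3, a subunit of the lysosomal Ragulator complex (0.967), Timeless, a replication fork protein (0.967), and Mrps26 of the mitochondrial ribosome (0.965). Slc17a9 had means of 1.25 TPM after 6 h with anti-CD40 alone and 49.2 TPM with IL-21 at 24 h. Most like the averaged profile of the 8 members were Selenow, a selenoprotein (0.964), Baz1a, a chromatin remodelling subunit (0.947), Tiparp, an ADP-ribosyltransferase (0.947), Ffar1, a fatty acid receptor (0.940), and Vav1, an exchange factor of antigen receptor signalling (0.932).

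GIMAPs are reported to act with proteins of the BCL2 family and with the ATG8 proteins of autophagy, and 9 such genes were followed, all tested. From naive cells to 6 h with anti-CD40 alone 5 of the 9 rose and 1 fell, with a median of 0.54, where 16.6% of all genes were called higher and 13.3% lower. The survival gene Bcl2l1 rose (4.14 ± 0.31, adjusted p = 8.11e-10), as did the death effector Bax (2.36 ± 0.14, adjusted p = 2.13e-11), while Bcl2 fell (-2.39 ± 0.24, adjusted p = 6.49e-08). With IL-21 at 24 h 3 of 9 rose and 1 fell: Bcl2l11, which encodes the death inducer BIM (1.43 ± 0.23, adjusted p = 6.36e-05), Bax (0.77 ± 0.14, adjusted p = 0.000266) and Gabarapl2, the ATG8 protein bound by Gimap6 (0.59 ± 0.16, adjusted p = 0.00779), against Bcl2 (-1.35 ± 0.24, adjusted p = 0.000253). In the presence of IL-4 again 3 rose and 1 fell, with Bcl2l11 at 2.42 ± 0.23, adjusted p = 6.02e-08, Gabarapl2 at 0.89 ± 0.16, adjusted p = 0.000362 and Map1lc3b at 0.63 ± 0.15, adjusted p = 0.00608, and Bcl2l1 at -1.91 ± 0.31, adjusted p = 0.000143. Medians were 0.22 and 0.63 in these 2 comparisons, beside 0.23 and 0.38 over all genes, and after rescaling 2 rose and 2 fell without IL-4 and 1 rose and 3 fell with it. At 24 h against naive 2 rose and 2 fell, at 24 h against 6 h 1 rose and 5 fell, and IL-4 lowered 1 at 6 h (Bcl2l11, -0.95 ± 0.23, adjusted p = 0.0131) and raised 2 and lowered 3 at 24 h. Among all genes the shares called higher and lower were 18.9% and 7.85% at 24 h against naive, and 16.1% and 8.17% at 24 h against 6 h. With IL-4 they were 1.65% and 2.4% at 6 h and 8.28% and 23.1% at 24 h. Bcl2 was the 1 gene of the list with a called interaction (1.16 ± 0.34, adjusted p = 0.0456), where 3.33% of all genes were called positive and 2.48% negative.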

How the data were processed

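Polyadenylated RNA was sequenced from 27 libraries. Per the submitters' processing notes, the authors used Salmon 1.9.0 and GRCm38/mm10, and they deposited 1 table of TPM (transcript shares scaled for length) for 35604 genes, with no counts, so depth is unknown and no interval on counting error can be given. The annotation release and how transcripts were summed to genes are not given in the sources used here.

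Gene IDs were matched to GENCODE M21, which named 35254. Groups and replicate numbers came from the labels, and columns of samples outside the series numbered 0. Genes had to reach 1 TPM in 3 or more libraries, which left 12147, and 1 was added to each TPM before log2, so that folds of low genes come out too small. In limma 3.58.1 (R 4.3.3) all 27 libraries entered a single model of 9 group means (18 residual degrees of freedom, trended variances), with Benjamini-Hochberg adjustment over all 12147 genes and calls at an adjusted p below 0.05. The fit was tested on simulated data. Sequences, promoter windows and coding identity were computed from RefSeq and GENCODE tables with Python 3.11.15 and Biopython 1.88.

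The members, gene lists and markers were chosen with earlier results of these data known. All 8 members are named, from each list at most 3 called genes per direction and comparison, and the 5 genes most like Gimap4 and the family profile, while 1 gene of the resting lymphocyte list is not reported here by name. The lists are proteins reported to bind or act with GIMAPs, interferon-inducible GTPases, resting lymphocyte genes, neighbours of the cluster, and markers of B, T, NK, macrophage and endothelial cells.

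Replicate numbers come from the labels, which do not say what they share. For IL-4 at 6 h libraries of the same number deviated together from their group means (correlation 0.107 to 0.382 over 3 pairs). In none of the 7 other comparisons checked were all pairs above 0.1. The main fit paired no libraries in any comparison, also not for IL-4 at 6 h, where the replicate block was run as an alternative. The change of the IL-4 effect was not checked for pairing. Alternatives were median-of-ratios rescaling of the libraries, a pseudocount of 0.1 TPM, testing every gene or only those reaching 5 TPM, untrended variances, the replicate block, single left-out libraries, leaving out the 2 replicate 1 libraries that stand apart, and a fit of the compared groups alone. The addition of Gm28053 and the change of the IL-4 effect were added after seeing the data.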

Additional observations from a re-analysis of the deposited data

Results flagged for a closer look

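In the model of all 27 libraries the effect of IL-4 differed between 6 h and 24 h for 4 members, by a limma test of the difference itself that was added after the levels had been seen. That test draws on the anti-CD40 libraries at 6 h, which served in choosing the family. The change was -1.64 for Gimap8, from 0.50 at 6 h to -1.15 at 24 h, and -1.57 for Gimap3, from 1.40 to -0.17. It was -0.86 for Gimap5, from 0.49 to -0.37, and -0.68 for Gimap6, from -0.03 to -0.71. All genes had a median change of -0.32. Rescaling ended the calls of Gimap5 (-0.36, adjusted p = 0.299) and Gimap6 (-0.18, adjusted p = 0.75), and the compared groups alone gave adjusted p = 0.0749 for Gimap3, 0.0841 for Gimap5 and 0.107 for Gimap6, so that Gimap8 alone of the 4 was called in both. The effect of IL-21 at 24 h differed between cultures with and without IL-4 for Gimap8 in the same model, by an interaction of 0.74, from 0.21 without IL-4 to 0.96 with it. That call was lost after rescaling (0.45, adjusted p = 0.0917), with no variance trend (adjusted p = 0.0565), with the compared groups alone (adjusted p = 0.152) and without any 1 of 9 of the 12 libraries.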

How the results depend on the processing

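Over 72 member results and 1107 recomputed values, 991 kept their direction and their side of the threshold, 57 lost a call, 32 gained one and 27 turned sign. The 8 calls after 6 h with anti-CD40 alone held under every alternative run, as did those of Gimap3, Gimap4 and Gimap5 with IL-21 at 24 h, with and without IL-4. Median-of-ratios rescaling called 6 members at 24 h against naive in place of 3, all lower, where 1987 of 12052 genes were called lower in place of 953 of 12147. The fit of the compared groups alone called 1 for IL-4 at 24 h in place of 4, where 6 libraries estimate the spread. In that fit 987 of 10254 genes were called lower, in place of 2810 of 12147. For the interaction the count of 1 became 2 with no filter, 0 with no variance trend, 2 with the replicate block, 4 without the 2 replicate 1 libraries, 0 with the compared groups alone and 0 to 3 with 1 library left out. After rescaling it stayed at 1, but the member called was Gimap4 in place of Gimap8.

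The replicate block changed 5 member calls, each gained: Gimap5 with IL-4 at 6 h (adjusted p = 0.0486) and 24 h (0.0437), Gimap7 with IL-21 at 24 h (0.0410), Gimap9 with IL-21 in the presence of IL-4 (0.0459) and Gimap6 in the interaction (0.0474). Only the first comparison had paired numbers.

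Signs turned only among values that were not called. After rescaling these were, at 24 h against naive, Gimap4 (-0.068). For IL-4 at 24 h they were Gimap3 (0.30) and Gimap5 (0.097). With IL-21 at 24 h they were Gimap1 (-0.12), Gimap6 (-0.11) and Gimap8 (-0.059), and in the presence of IL-4 Gimap7 (-0.40) and Gimap9 (-0.19). In the interaction Gimap3 turned (-0.23), and in the change of the IL-4 effect Gimap7 (0.013) and Gimap9 (0.046). At 24 h against naive, Gimap8 was 0.064 without the 2 replicate 1 libraries and ranged from -0.22 to 0.064 with 1 library left out. With Gm28053 added, Gimap5 was 0.31 there, and in the interaction Gimap5 was 0.060 and Gimap7 0.13. With 1 library left out, Gimap6 for IL-4 at 6 h ranged from -0.072 to 0.031, and for IL-4 at 24 h Gimap3 ranged from -0.59 to 0.099 and Gimap9 from -0.11 to 0.29. In the interaction, such ranges were -0.20 to 0.49 for Gimap3, -0.13 to 0.040 for Gimap5 and -0.31 to 0.088 for Gimap9. The causes were not tested. TPM keep no depth, so how far low depth limits single values is unknown.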

Other observations

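Genes known to mark resting lymphocytes, a list of 14 that were all tested, were followed beside the GIMAP family, and whether they differ from the members was not tested. After 6 h with anti-CD40 alone 11 of 14 fell (median -1.02), led by Tsc22d3 (-4.70 ± 0.36, adjusted p = 1.42e-09), S1pr1 (-4.54 ± 0.27, adjusted p = 2.54e-11) and Klf2 (-3.98 ± 0.32, adjusted p = 2.46e-09). At 24 h 8 were lower than in naive cells, and from 6 h to 24 h 2 rose and 1 fell. IL-4 raised 1 and lowered 2 at 6 h, and at 24 h it lowered 12, where Btg2 was at -2.65 ± 0.27, adjusted p = 1.83e-07. With IL-21 at 24 h 5 fell, among them Sesn1 (-2.63 ± 0.15, adjusted p = 1.87e-11) and Ccr7 (-2.59 ± 0.51, adjusted p = 0.000721), and Bach2 alone rose (1.70 ± 0.28, adjusted p = 0.000127). In the presence of IL-4, IL-21 raised 7 and lowered 1, with Bach2 at 2.83 ± 0.28, adjusted p = 1.83e-07 and Klf2 at 2.67 ± 0.32, adjusted p = 2.68e-06. The interaction was positive and called for 8 of 14, among them Btg1 (2.28 ± 0.39, adjusted p = 0.000876) and Btg2 (2.16 ± 0.38, adjusted p = 0.00121). Among all genes 13.3% were called lower at 6 h against naive and 7.85% at 24 h. From 6 h to 24 h 16.1% were called higher and 8.17% lower. With IL-4 1.65% were called higher and 2.4% lower at 6 h, and 23.1% lower at 24 h. With IL-21 at 24 h 17.8% were called higher and 6.33% lower, and 21.8% and 2.39% in the presence of IL-4. A positive interaction was called for 3.33%. After rescaling, 12 of 14 were lower at 24 h than in naive cells, where 1987 of 12052 genes were called lower. IL-21 in the presence of IL-4 then raised 6 and lowered 2, where 1212 of 12052 were called higher and 1405 lower.

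Interferon-inducible GTPases, another family of immune GTP-binding proteins, were lower with IL-21 at 24 h: 8 of the 14 tested of 16 listed fell (median -0.82, beside 0.23 over all genes), among them Gbp9 (-2.92 ± 0.29, adjusted p = 1.19e-07), Gbp5 (-2.76 ± 0.27, adjusted p = 7.64e-08) and Gbp3 (-2.52 ± 0.17, adjusted p = 2.39e-10). In the presence of IL-4 4 fell. After 6 h with anti-CD40 alone 10 fell and 1 rose, at 24 h 6 were lower than naive and 5 higher, and from 6 h to 24 h 6 rose. IL-4 lowered 4 at 6 h and 10 at 24 h, where it raised 1, and the interaction was called for 5 (4 positive, 1 negative). Among all genes 6.33% were called lower with IL-21 at 24 h and 2.39% in the presence of IL-4. At 6 h against naive 13.3% were called lower and 16.6% higher, and at 24 h 7.85% and 18.9%. From 6 h to 24 h 16.1% were called higher. With IL-4 2.4% were called lower at 6 h and 23.1% at 24 h, where 8.28% were called higher. The interaction was called positive for 3.33% and negative for 2.48%. Medians of the list had the same sign after rescaling in the comparisons run, with -0.97 for IL-21 at 24 h.

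Of the 10 nearest protein-coding genes outside the GIMAP cluster, 5 on each side, 5 were tested. Tmem176a was the 1 that fell after 6 h with anti-CD40 alone (-1.09 ± 0.32, adjusted p = 0.0114). At 24 h 3 were higher than in naive cells, Tmem176a (3.00 ± 0.32, adjusted p = 2.85e-07), Tmem176b (1.51 ± 0.40, adjusted p = 0.00785) and Zfp775 (1.09 ± 0.27, adjusted p = 0.00419), and the same count rose from 6 h to 24 h. IL-4 changed 0 at 6 h by limma (1 at an unadjusted p below 0.05) and raised 2 at 24 h, Tmem176b (3.04 ± 0.40, adjusted p = 6.86e-06) and Tmem176a (2.62 ± 0.32, adjusted p = 2.15e-06). IL-21 at 24 h raised Tmem176b (1.12 ± 0.40, adjusted p = 0.0472), which was not called after rescaling, and, in the presence of IL-4, lowered 2, Tmem176a (-2.37 ± 0.32, adjusted p = 1.27e-05) and Tmem176b (-1.98 ± 0.40, adjusted p = 0.00147), for both of which the interaction was negative and called. Among all genes 13.3% were called lower at 6 h against naive and 18.9% higher at 24 h, and 16.1% higher from 6 h to 24 h. With IL-4 1.65% were called higher at 6 h and 8.28% at 24 h. With IL-21 at 24 h 17.8% were called higher, and in the presence of IL-4 2.39% lower. A negative interaction was called for 2.48%.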
